A study of Homo sapiens with 16 samples.

Results

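Solute carrier (SLC) genes encode the membrane proteins that move nutrients, ions, metals, vitamins and metabolites into cells and between their compartments. Their levels are described here in HCT116 cells, an established line from a human colorectal carcinoma. The members are the genes whose symbol begins with SLC and a digit, antisense genes left out, with a mean of at least 1 RPKM (reads per kilobase of gene, scaled to the reads of each library) over 16 libraries. They number 197 of the 20612 genes in the table. Of 342 such symbols, 145 lay below 1 RPKM, and of 8 antisense symbols left out 2 lay above it. Just inside the threshold were SLC6A9 (1.00 RPKM), SLC7A5P2 (1.01) and SLC46A3 (1.02), and just outside it were SLC4A8 (0.931), SLC16A6 (0.899) and SLC38A3 (0.888).

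Most carriers work without hydrolysing ATP, either by letting a substrate run down its gradient or by coupling it to an ion or to a second substrate. The family number groups carriers by sequence and, roughly, by substrate, but not strictly: SLC5A6 carries vitamins and SLC43A3 nucleobases although their families are mainly sugar and amino acid carriers. In tumour cells the best known members are the glucose carrier SLC2A1, the glutamine carrier SLC1A5, the leucine carrier SLC7A5 with its partner SLC3A2, the cystine carrier SLC7A11 and the lactate carriers SLC16A1 and SLC16A3.

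Polyadenylated RNA was sequenced from cells labelled p53+/+ and from a derivative labelled p53-/-. Treatments lasted 8 hours and were DMSO as vehicle, Nutlin-3A at 5 µM, Entinostat at 2.5 µM, or both drugs at these doses (the combination). Nutlin-3A keeps MDM2, a ubiquitin ligase, off p53, and Entinostat inhibits histone deacetylases of class I. All groups grew in McCoy's medium with serum, glutamine and pyruvate. There were 8 groups of 2 replicates. The labels name a single p53-/- line, so the loss of p53 and any other difference between these lines cannot be told apart. They do not say that replicates were separate cultures, so each p covers only the spread among libraries, which can be technical.

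The labels were checked first. MDM2, a p53 target, changed by 3.85 on the log2 scale with Nutlin-3A in p53+/+ cells (adjusted p = 3.8e-09) and by 0.44 in p53-/- cells (adjusted p = 0.96). CDKN1A, another target, changed by 3.54 (adjusted p = 5.7e-05) and 0.20 (adjusted p = 0.97). Of 8 epithelial markers, EPCAM, KRT8, KRT18, KRT19, CDH1 and CDX2 had at least 3.06 RPKM in every library, while CDH17 and VIL1 stayed below 0.0435. Of 11 markers of blood, endothelial, stromal and liver cells, COL1A1 had 2.00 to 5.80 RPKM and the other 10 together 0.151 to 0.597. COL1A1, a collagen of stromal cells, changed by 0.79 ± 0.12 (adjusted p = 0.0015) and 0.69 ± 0.12 (adjusted p = 0.0024) with Entinostat in p53+/+ and p53-/- cells, and by 1.03 ± 0.12 (adjusted p = 7.8e-05) and 0.67 ± 0.12 (adjusted p = 0.0024) with the combination (limma). Its part in the Entinostat and combination results was not tested. Libraries held 45902800 to 55507300 alignments.

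SLC genes spanned a wide range of levels per length. Their means had a median of 6.66 RPKM, 6 members reached 100 RPKM, 64 lay between 10 and 100, and 127 lay below 10. The most abundant were the mitochondrial ADP/ATP carrier SLC25A5 (411 RPKM) and the mitochondrial phosphate carrier SLC25A3 (379). Members belonged to 41 numbered families, of which SLC25 (37 members) and SLC35 (24) were the largest. Together they made up 0.85% to 0.953% of the summed RPKM of a library. Group means differed by over 2 times between the highest and the lowest group for 55 members, and the median of this ratio was 1.67. In 16 members at least 1 group mean was below 1 RPKM, so that they passed the threshold through the groups where they are higher. These were SLC1A3, SLC1A4, SLC2A3, SLC2A13, SLC6A9, SLC7A5P2, SLC7A8, SLC10A7, SLC22A17, SLC25A27, SLC25A35, SLC30A4, SLC35F5, SLC37A2, SLC43A1 and SLC46A3. Their differences between those groups are tied to how members were chosen, and are given as a description of levels.

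Changes below are differences of log2(RPKM + 0.5) ± SE with 2 libraries a group, and a gene is said to rise or fall where limma's adjusted p over 12466 tested genes was under 0.05. With Nutlin-3A in p53+/+ cells 21 members rose and 15 fell, 10.7% and 7.61% of members, beside 7.89% and 9.5% of all tested genes. Without p53+/+ DMSO replicate 1 the split of members shifted further towards rises, and that of all genes shifted towards rises too. With Nutlin-3A in p53-/- cells 0 members were called in either direction, with 0% and 0% of all genes called. There 7 members had an unadjusted p under 0.05, and limma with a replicate block also called 0. The 36 members called in p53+/+ cells had changes from -0.31 to 0.22 in p53-/- cells. The share of members called with Nutlin-3A was thus near that of all genes.

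More members were called with Entinostat. In p53+/+ cells 32 rose and 44 fell, 16.2% and 22.3% of members, beside 15.1% and 12.4% of all genes. In p53-/- cells 32 rose and 38 fell, 16.2% and 19.3%, beside 15% and 13.3%. The rises in both genotypes include SLC46A3, SLC7A8, SLC1A4 and SLC30A4, and the falls in p53+/+ cells include SLC6A9. These passed the threshold through their higher groups, so the counts are in part tied to how members were chosen. The excess over the background lay among the genes that fell, and the difference between members and all genes was not tested. Under median-of-ratios scaling 29 rose and 52 fell in p53+/+ cells, beside 1678 and 1925 of all genes, and 28 rose and 48 fell in p53-/- cells, beside 1652 and 2052 of all genes. In the values as deposited more of all genes rose than fell, 1887 and 1547 in p53+/+ and 1868 and 1652 in p53-/- cells. With the combination in p53+/+ cells 48 rose and 53 fell, 24.4% and 26.9%, beside 23.2% and 26.8% of all genes. In p53-/- cells 35 rose and 41 fell with the combination, 17.8% and 20.8%, beside 17.1% and 14.7%. Median changes over the members were between -0.04 and 0.01 in these 5 comparisons and over all genes between -0.03 and 0.03. The drug comparisons of a genotype share their DMSO libraries. Counts for groups of members by role, below, stand beside these same shares of all genes, and no group was tested against all genes. Where 4 pairs of p53-/- values follow each other below, their order is DMSO, Nutlin-3A, Entinostat and the combination, and where 3 pairs do, they are those of the groups just named.

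The genotypes were also compared directly. Under DMSO 3 members were higher and 8 lower in p53-/- than in p53+/+ cells, 1.52% and 4.06% of members, beside 1.56% and 3.13% of all genes. The response to Nutlin-3A was more positive in p53+/+ cells for 7 members and more negative for 0. These were 3.55% and 0% of members, beside 3.49% and 3.29% of all genes. With the replicate block the counts were 22 and 9, beside 1049 and 1077 of all genes. For Entinostat the difference in response was called for 0 members, with 0% and 0% of all genes. There 4 members had an unadjusted p under 0.05, and the fit with a replicate block called 0 members. For the combination it was positive for 5 members and negative for 3, 2.54% and 1.52%, beside 1.97% and 3.81% of all genes. That split was 6 and 1 under median-of-ratios scaling, beside 275 and 375 of all genes. Under quantile normalization it was 10 and 4, beside 425 and 479, and with the replicate block 20 and 23, beside 1156 and 1811.

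Single libraries set many of these counts. In each fit without a library named here, the calls over all tested genes moved in the same direction as those of the members. Calls of members for Entinostat in p53+/+ cells went from 76 to 16 without Entinostat replicate 1, to 32 without DMSO replicate 1 and to 25 without DMSO replicate 2. For p53-/- cells they fell from 70 as well, furthest without p53-/- Entinostat replicate 1 and less without either p53-/- DMSO library. For the combination in p53-/- cells they went from 76 to 23 without combination replicate 1, and to 46 and 40 without DMSO replicates 1 and 2. For Nutlin-3A in p53+/+ cells they went from 36 to 20 and 16 without DMSO replicates 1 and 2 and to 17 without Nutlin-3A replicate 1. Between genotypes under DMSO the count went from 11 to 5 without either p53+/+ library and to 6 without either p53-/- library. For the difference in the Nutlin-3A response it went from 7 to 4 without either p53+/+ DMSO library or without p53-/- DMSO replicate 2, and to 3 without p53+/+ Nutlin-3A replicate 1 or p53-/- Nutlin-3A replicate 2. For the difference in the combination response it went from 8 to 22 without p53+/+ combination replicate 2, to 4 without p53-/- DMSO replicate 1, to 3 without either p53-/- combination library, to 1 without p53-/- DMSO replicate 2 and to 2 without any of the other p53+/+ libraries. Replicates with the same number deviated together, and a fit with replicate number as a block called more members: 55 for Nutlin-3A in p53+/+ cells, 29 between genotypes under DMSO, 31 and 43 for the differences in response to Nutlin-3A and the combination. With the block 45 rose and 57 fell with Entinostat and 66 and 68 with the combination in p53+/+ cells. In p53-/- cells 46 and 55, and 50 and 59, did so. More of all 12466 tested genes were called too, 3931 against 2167 for Nutlin-3A in p53+/+ cells. For Entinostat and the combination these were 5565 against 3434 and 7981 against 6236 there. In p53-/- cells they were 5677 against 3520 and 6088 against 3965. Between genotypes 1634 against 585 were called, and for the differences in response to Nutlin-3A and the combination 2126 against 845 and 2967 against 720. Unless the block is named, calls and p-values come from the fit without it, which ignores this pairing.

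**Figure D1:**
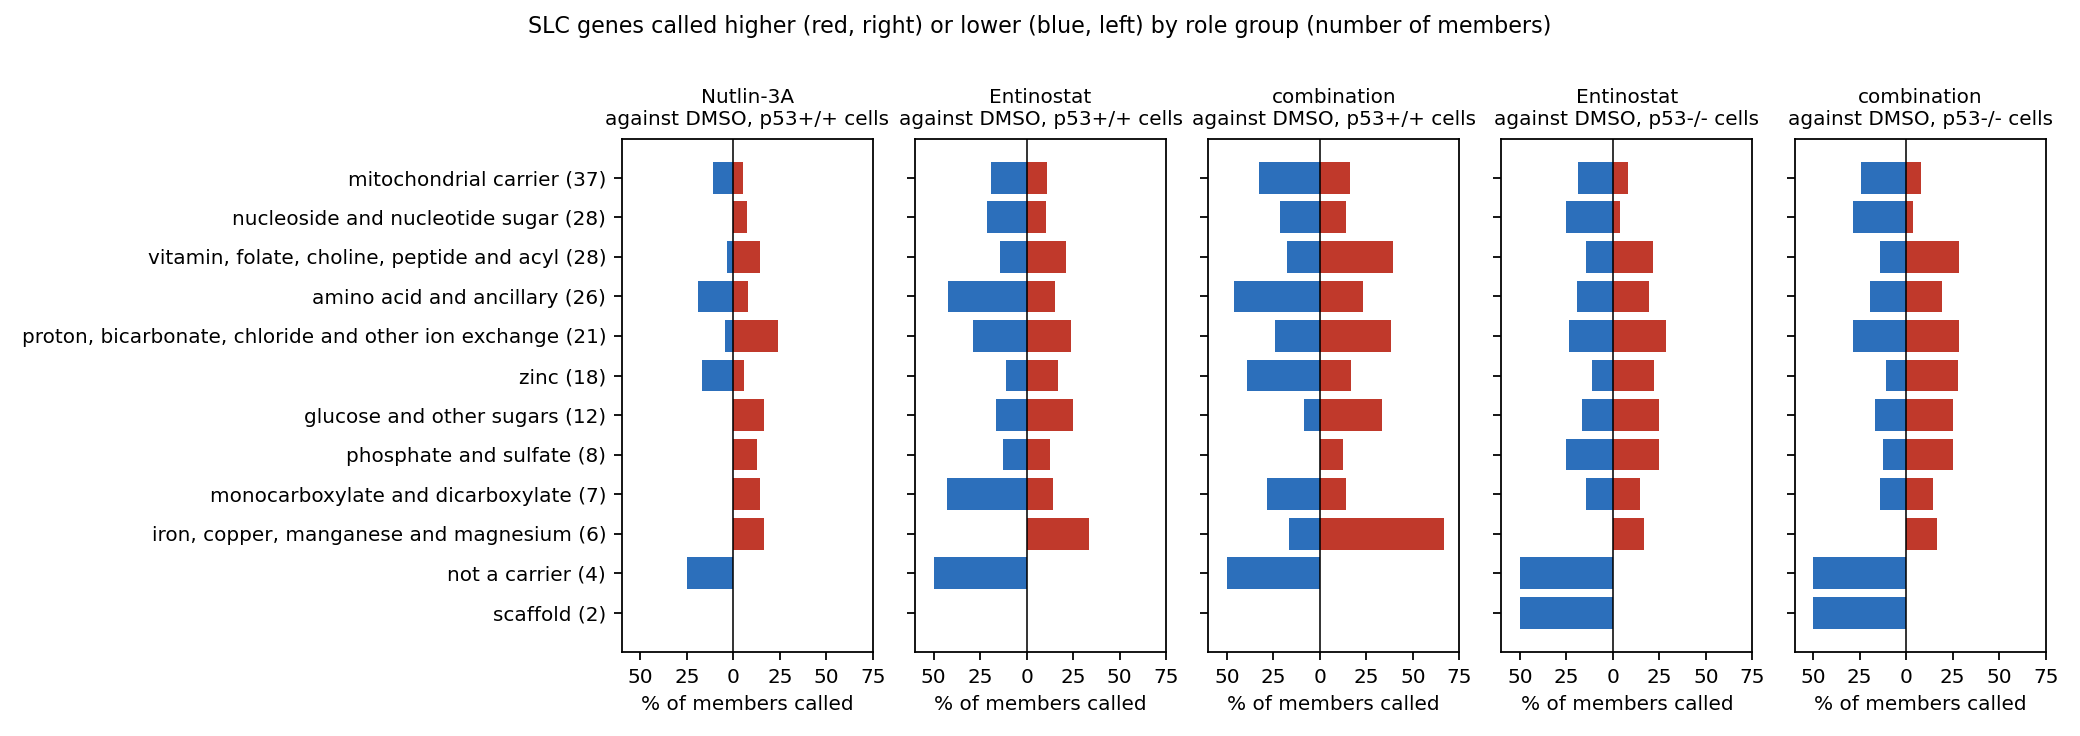
Share of the members of each role group that rose (red, to the right) or fell (blue, to the left) in 5 drug comparisons, in percent, with the number of members in brackets. Of 26 amino acid carriers, 11 fell with Entinostat and 12 with the combination in p53+/+ cells. These are 42.3% and 46.2% of the group, beside 12.4% and 26.8% of all genes. In p53-/- cells 5 fell with Entinostat and 5 with the combination, 19.2% each, beside 13.3% and 14.7% of all genes. The difference in Entinostat response between genotypes was called for 0 of these 26 members.

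Among sugar carriers, SLC2A1 differed both with Nutlin-3A and between genotypes. SLC2A1, the carrier for basal glucose uptake, had 19.8 and 18 RPKM under DMSO, 41.8 and 32.8 with Nutlin-3A, 14.4 and 14.3 with Entinostat and 33.4 and 27.2 with the combination in p53+/+ libraries. In p53-/- libraries it had 48.4 and 48 RPKM under DMSO, 48.6 and 39.8 with Nutlin-3A, 36.3 and 35.4 with Entinostat and 36.8 and 36.3 with the combination. All p53+/+ libraries with Nutlin-3A lay above those without it, and every p53+/+ library without Nutlin-3A lay below every p53-/- library. The change with Nutlin-3A was 0.95 ± 0.13 (adjusted p = 0.00034) in p53+/+ cells and -0.13 ± 0.13 (adjusted p = 0.96) in p53-/- cells. The difference between these responses was 1.08 ± 0.18 (adjusted p = 0.0038), and that for the combination was 1.05 ± 0.18 (adjusted p = 0.0095). Under DMSO the level in p53-/- cells was higher by 1.33 ± 0.13 (adjusted p = 7.8e-05). With Entinostat SLC2A1 changed by -0.39 ± 0.13 (adjusted p = 0.042) in p53+/+ cells and by -0.42 ± 0.13 (adjusted p = 0.029) in p53-/- cells. The Entinostat calls were lost in p53+/+ cells (adjusted p 0.095 to 0.2 without any 1 of its 4 libraries, 0.071 without the filter on low values, 0.081 under quantile normalization) and in p53-/- cells (adjusted p 0.094 to 0.12 without any 1 of its 4 libraries, 0.053 without the filter on low values, 0.11 under quantile normalization).

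SLC2A3, the high-affinity glucose carrier of neurons, had 0.556 and 0.373 RPKM under DMSO, 0.737 and 0.339 with Nutlin-3A, 1.04 and 0.518 with Entinostat and 2.12 and 0.956 with the combination in p53+/+ cells. The p53-/- libraries had 2.12 and 1.31, 2.17 and 1.45, 5.31 and 2.05, and 5.12 and 1.96 RPKM in the same order. In each of the 8 groups replicate 1 was above replicate 2. SLC2A3 averaged below 1 RPKM in 3 groups and passed the threshold through the others, so its differences are descriptions of levels. SLC2A3 was not called in any comparison, with 1.02 ± 0.46 (adjusted p = 0.079) for the combination in p53+/+ cells and 1.18 ± 0.46 (adjusted p = 0.2) between genotypes. With the replicate block both were called (adjusted p = 0.00058 and 0.0014), as were Entinostat and the combination in p53-/- cells (adjusted p = 0.0048 and 0.0063).

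Of the 12 members of the sugar carrier families 2 rose and 0 fell with Nutlin-3A, 3 rose and 2 fell with Entinostat and 4 rose and 1 fell with the combination in p53+/+ cells. With Entinostat 3 rose and 2 fell in p53-/- cells and 3 rose and 2 fell with the combination. The members that fell were SLC2A1 and SLC5A6 with Entinostat in p53+/+ cells and with Entinostat and the combination in p53-/- cells, and with the combination in p53+/+ cells SLC5A6, which carries vitamins rather than sugars. SLC2A11, a fructose and glucose carrier, had 1.91 and 1.68 RPKM under DMSO, 2.68 and 2.75 with Nutlin-3A, 3.59 and 2.88 with Entinostat and 4.71 and 4.03 with the combination in p53+/+ cells. None of the treated p53+/+ groups overlapped with DMSO. The changes were 0.49 ± 0.12 (adjusted p = 0.015), 0.70 ± 0.12 (adjusted p = 0.0024) and 1.08 ± 0.12 (adjusted p = 5.8e-05). SLC2A11 also rose in p53-/- cells, by 0.71 ± 0.12 (adjusted p = 0.0021) with Entinostat. The Nutlin-3A call was lost (adjusted p 0.075 to 0.13 without any 1 library other than DMSO replicate 1). SLC45A1, a proton-coupled sugar carrier, had 2.45 and 1.77 RPKM under DMSO and 7.3 and 4.85 with the combination in p53+/+ cells, a rise of 1.32 ± 0.23 (adjusted p = 0.00074). SLC5A6 carries biotin and pantothenate and had 19.1 and 20.4 RPKM under DMSO and 10.5 and 12.7 with the combination, a change of -0.75 ± 0.18 (adjusted p = 0.0048). SLC50A1, which carries sugars across internal membranes, averaged 15.4 RPKM and was called only with the block, for the combination in p53+/+ cells (adjusted p = 0.028).

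Zinc carriers lower cytosolic zinc (SLC30) or raise it (SLC39). SLC30A1, which exports zinc across the plasma membrane, had the largest rise among the members with Nutlin-3A in p53+/+ cells. Its level was 4.78 and 5.57 RPKM under DMSO, 13.1 and 13 with Nutlin-3A, 8.05 and 7.42 with Entinostat and 14.5 and 14.9 with the combination. The p53-/- level was 4.1 and 6.26 RPKM under DMSO, 3.58 and 5.2 with Nutlin-3A, 6.87 and 8.03 with Entinostat and 7.17 and 8.94 with the combination. The 4 p53+/+ libraries that received Nutlin-3A were above all 12 others. The change with Nutlin-3A was 1.26 ± 0.19 (adjusted p = 0.00065) in p53+/+ cells and -0.21 ± 0.19 (adjusted p = 0.96) in p53-/- cells, a difference of 1.47 ± 0.27 (adjusted p = 0.0057). With the combination it was 1.43 ± 0.19 (adjusted p = 0.00015) in p53+/+ cells. In p53-/- cells the combination gave 0.61 ± 0.19 (adjusted p = 0.028), a call that was lost (adjusted p 0.059 to 0.24 without any 1 library other than DMSO replicate 2, 0.061 without the filter on low values). The difference for the combination was 0.82 ± 0.27 (adjusted p = 0.091), and the replicate block called it (adjusted p = 0.011). Entinostat alone gave 0.54 ± 0.19 (adjusted p = 0.0504) in p53+/+ and 0.51 ± 0.19 (adjusted p = 0.063) in p53-/- cells, neither called, and both were called with the block (adjusted p = 0.0069 and 0.0097).

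Promoters of 3 members whose Nutlin-3A response differed between genotypes are shown because these genes rose together with Nutlin-3A in p53+/+ cells. They were chosen after the values were seen, as the largest of the 7 differences whose gene has a single entry in the table. SLC12A4, which lay among them by size, has 4 entries with different starts and is not printed. They cover 250 bases before to 50 after the gene start, on the gene's strand, from the RefSeq table for GRCh38.p14, while the authors aligned to hg19. Capitals mark, on either strand, the metal response core (TGCACNC or TGCGCNC, bound by the zinc-sensing factor MTF1), the GC box (GGGCGGG) and the CCAAT box. The capitals may belong to more than 1 motif where these overlap.
SLC30A1, chr1:211579112-211579411, minus strand: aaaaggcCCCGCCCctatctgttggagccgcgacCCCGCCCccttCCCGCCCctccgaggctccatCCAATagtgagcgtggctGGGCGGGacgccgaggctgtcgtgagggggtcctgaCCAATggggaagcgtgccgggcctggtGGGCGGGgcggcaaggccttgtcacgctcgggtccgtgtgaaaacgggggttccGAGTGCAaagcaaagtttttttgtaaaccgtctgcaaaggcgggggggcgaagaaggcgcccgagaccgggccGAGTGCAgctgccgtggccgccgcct
SLC2A1, chr1:42958819-42959118, minus strand: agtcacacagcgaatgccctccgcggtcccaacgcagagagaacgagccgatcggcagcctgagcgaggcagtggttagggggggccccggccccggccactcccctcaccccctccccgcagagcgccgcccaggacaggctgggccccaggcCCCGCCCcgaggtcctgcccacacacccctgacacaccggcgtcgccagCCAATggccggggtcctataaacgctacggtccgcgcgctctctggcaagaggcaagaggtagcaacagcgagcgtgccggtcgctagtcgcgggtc
SLC29A3, chr10:71319009-71319308, plus strand: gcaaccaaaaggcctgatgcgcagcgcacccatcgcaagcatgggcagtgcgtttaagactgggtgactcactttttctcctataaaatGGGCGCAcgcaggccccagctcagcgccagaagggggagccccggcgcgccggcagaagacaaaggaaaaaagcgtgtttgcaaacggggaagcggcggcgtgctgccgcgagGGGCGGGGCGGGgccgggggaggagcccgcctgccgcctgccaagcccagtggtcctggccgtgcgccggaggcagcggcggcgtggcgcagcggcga
The SLC30A1 window held 2 metal response cores, 5 GC boxes and 2 CCAAT boxes, that of SLC2A1 held 1 GC box and 1 CCAAT box, and that of SLC29A3 held 1 metal response core and 2 GC boxes. The first window of SLC12A4 held 1 metal response core and 3 GC boxes. The table had an entry for 158 of 197 members. Among 27305 genes with an entry, 29.3% held a metal response core, against 38% of the members with one, and 32.9% held a GC box, against 60.8%. The 27305 genes were not filtered by expression, while the members were. A gap between these shares can therefore not be read as particular to SLC genes, and it was not tested. A CCAAT box was in 35.7% of all and 39.9% of member windows, and an E-box (CACGTG) in 7.43% and 13.3%. The p53 half-site consensus was in 6.54% of all and 3.8% of member windows and in 0 of the 7 members whose Nutlin-3A response differed. Of these 7 members 4 held a metal response core, 5 a GC box, 2 a CCAAT box and 0 an E-box. For genes with several entries only the first was read. Such matches describe the letters in these windows and show no binding.

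**Figure D2:**
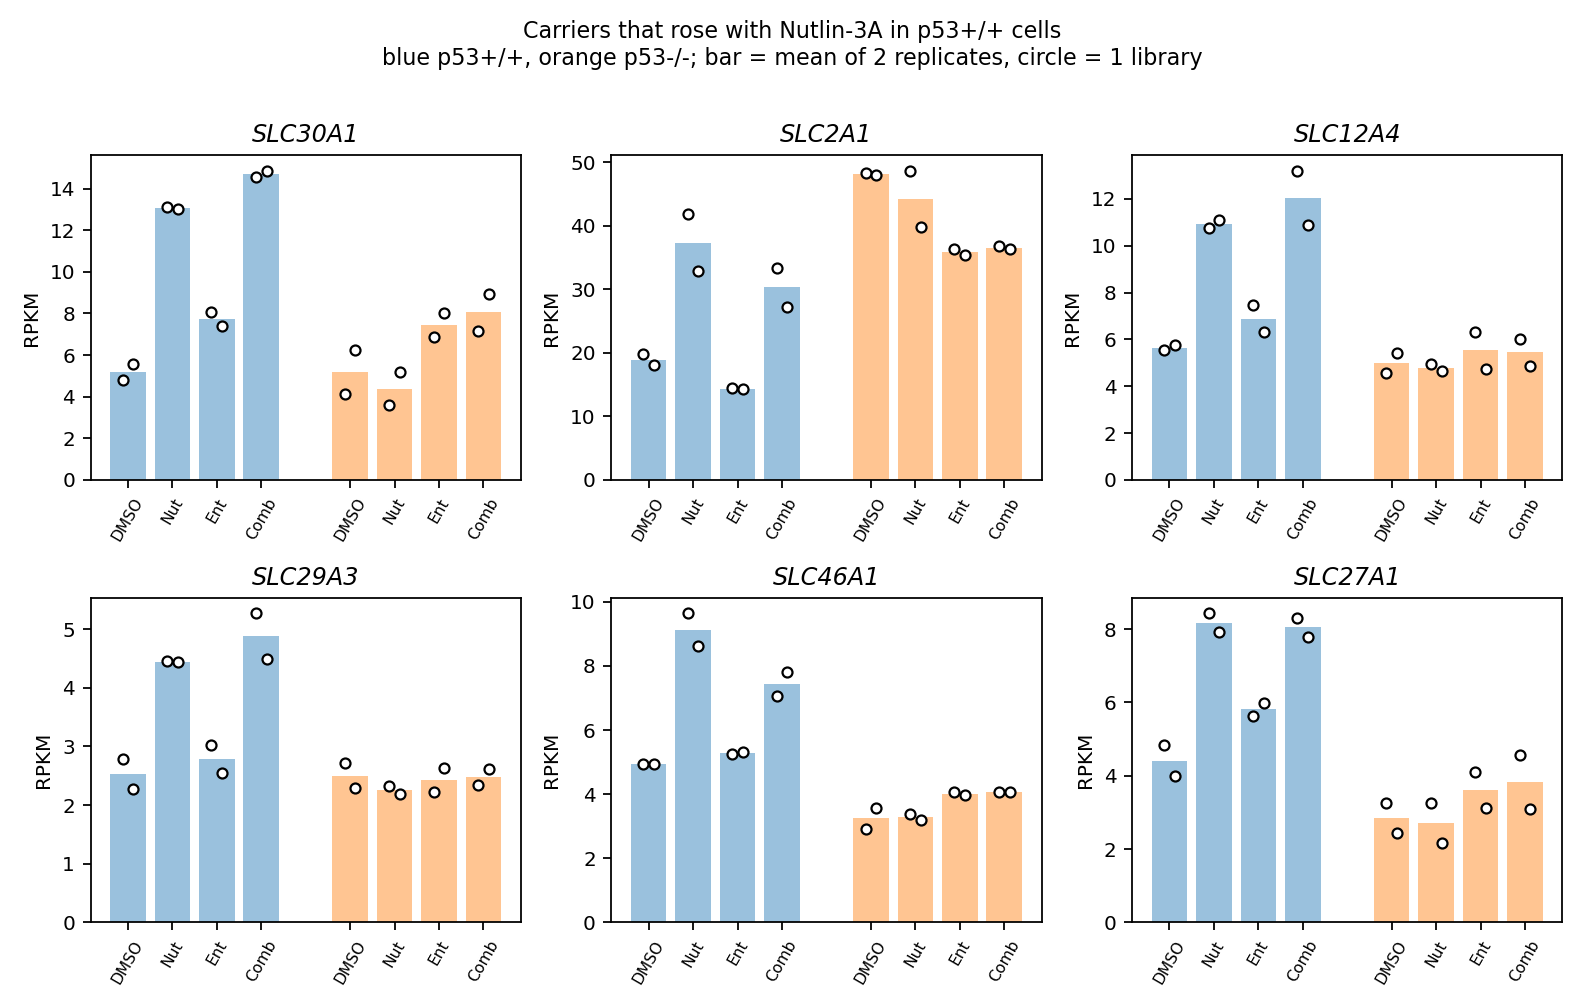
RPKM of SLC30A1, SLC2A1, SLC12A4, SLC29A3, SLC46A1 and SLC27A1 in each library (circles), bars giving the mean of both replicates and blue and orange the p53+/+ and p53-/- lines, on linear axes from 0. SLC30A1 averaged 5.17 RPKM under DMSO and 13.1 with Nutlin-3A in p53+/+ cells, and 5.18 and 4.39 in p53-/- cells.

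Of the 18 zinc carriers 1 rose and 3 fell with Nutlin-3A, 3 rose and 2 fell with Entinostat and 3 rose and 7 fell with the combination in p53+/+ cells. With Entinostat 4 rose and 2 fell in p53-/- cells and 5 rose and 2 fell with the combination. SLC30A3, which loads zinc into synaptic vesicles, moved in opposite directions with the 2 drugs. It had 6.35 and 5.73 RPKM under DMSO, 3.97 and 4.3 with Nutlin-3A and 9.15 and 8.84 with Entinostat in p53+/+ cells, and these 3 groups did not overlap. The changes were -0.49 ± 0.13 (adjusted p = 0.023) and 0.54 ± 0.13 (adjusted p = 0.012), and in p53-/- cells Entinostat gave 0.56 ± 0.13 (adjusted p = 0.0094). These calls were lost for Nutlin-3A (adjusted p 0.061 to 0.14 without any 1 of its 4 libraries), for Entinostat in p53+/+ cells (adjusted p 0.089 to 0.092 without DMSO replicate 2 or without Entinostat replicate 1) and in p53-/- cells (adjusted p 0.062 to 0.11 without DMSO replicate 2 or without Entinostat replicate 1). SLC30A4, a vesicular zinc carrier, had 0.865 and 0.713 RPKM under DMSO and 2.12 and 1.42 with Entinostat in p53+/+ cells, and 0.661 and 0.684 under DMSO and 1.85 and 1.53 with Entinostat in p53-/- cells. SLC30A4 averaged below 1 RPKM in 4 groups and passed the threshold through the others, so its rise is a description of levels. It rose by 0.80 ± 0.16 (adjusted p = 0.0049) and 0.90 ± 0.16 (adjusted p = 0.0029), and the first call was lost (adjusted p 0.07 without Entinostat replicate 1). SLC39A14, an importer of zinc, iron and manganese, rose by 0.46 ± 0.11 (adjusted p = 0.0053) with the combination in p53+/+ cells. SLC39A6 (43.7 RPKM on average), a zinc importer, changed by -0.33 ± 0.12 (adjusted p = 0.033) there, and this call was lost (adjusted p 0.079 to 0.26 without any 1 library other than combination replicate 2, 0.5 under quantile normalization). SLC30A9 (24.5 RPKM), a mitochondrial zinc carrier, was not called in any comparison.

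The 6 carriers of iron, copper, manganese and magnesium included 1 that rose with Nutlin-3A in p53+/+ cells, 2 that rose with Entinostat, and 4 that rose and 1 that fell with the combination. Entinostat and the combination were each called higher for 1 in p53-/- cells. SLC41A2, a magnesium carrier, had 1.52 and 1.44 RPKM under DMSO, 1.6 and 1.16 with Nutlin-3A, 4.06 and 3.17 with Entinostat and 3.12 and 3.18 with the combination in p53+/+ cells. Its p53-/- levels were 1.6 and 1.56, 1.45 and 1.86, 4.73 and 3.7, and 5.32 and 4.15 RPKM. In both genotypes every library with Entinostat was above every library without it. The rises with Entinostat were 1.05 ± 0.17 (adjusted p = 0.0018) and 1.17 ± 0.17 (adjusted p = 0.0011). SLC31A2, a copper carrier of internal membranes, had 3.96 and 3.91 RPKM under DMSO and 6.7 and 6.42 with the combination in p53+/+ cells, a rise of 0.67 ± 0.11 (adjusted p = 0.00052). SLC31A1, the copper importer, averaged 9.35 RPKM and was not called in any comparison, though with the block it was for Nutlin-3A (adjusted p = 0.017) and the combination (adjusted p = 0.027) in p53+/+ cells and for the difference in the response to the combination (adjusted p = 0.036). SLC41A1, which exports magnesium, changed by 0.52 ± 0.16 (adjusted p = 0.016) with the combination in p53+/+ cells, and SLC41A3 by 0.42 ± 0.16 (adjusted p = 0.048). These calls were lost for SLC41A1 (adjusted p 0.092 to 0.15 without DMSO replicate 2 or without combination replicate 1) and for SLC41A3 (adjusted p 0.052 to 0.26 without any 1 library other than combination replicate 2, 0.081 without the filter on low values, 0.054 under median-of-ratios scaling).

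Amino acid carriers and their ancillary chains form a group of 26 members. Of these 2 rose and 5 fell with Nutlin-3A, 4 rose and 11 fell with Entinostat and 6 rose and 12 fell with the combination, in p53+/+ cells, with median changes of -0.14, -0.30 and -0.39. With Entinostat 5 rose and 5 fell in p53-/- cells and 5 rose and 5 fell with the combination, with median changes of -0.17 and -0.16. The difference in response between genotypes was called for 0 members of the group with Entinostat. For the combination it was negative for 2 and positive for 0. The members that fell in p53+/+ cells were 19.2%, 42.3% and 46.2% of the group, beside 9.5%, 12.4% and 26.8% of all genes, and those that rose were 7.69%, 15.4% and 23.1%, beside 7.89%, 15.1% and 23.2%. In p53-/- cells 19.2% rose and 19.2% fell with Entinostat, and likewise with the combination. The shares of all genes there were 15% and 13.3% with Entinostat and 17.1% and 14.7% with the combination. The difference between the group and all genes was not tested. The summed RPKM of the group averaged 638 under DMSO, 526 with Nutlin-3A, 480.2 with Entinostat and 427 with the combination in p53+/+ cells. The p53-/- sums averaged 616, 607, 506 and 517. These sums were not tested.

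SLC7A5 and SLC3A2 form the heterodimer that exchanges leucine and other large neutral amino acids for glutamine. SLC7A5 had 167 and 167 RPKM under DMSO, 116 and 108 with Nutlin-3A, 120.0 and 116 with Entinostat and 92.8 and 89.3 with the combination in p53+/+ cells. Corresponding p53-/- libraries had 155 and 184, 168 and 154, 120.4 and 141, and 126 and 150.0 RPKM. No treated p53+/+ library reached the DMSO libraries. The changes were -0.57 ± 0.11 (adjusted p = 0.004) with Nutlin-3A, -0.50 ± 0.11 (adjusted p = 0.0078) with Entinostat and -0.87 ± 0.11 (adjusted p = 0.00013) with the combination. Nutlin-3A in p53-/- cells gave -0.07 ± 0.11 (adjusted p = 0.96) and Entinostat -0.37 ± 0.11 (adjusted p = 0.027). The difference in response to Nutlin-3A was -0.49 ± 0.16 (adjusted p = 0.092) and to the combination -0.57 ± 0.16 (adjusted p = 0.054). Neither passed, and both did with the block (adjusted p = 0.029 and 0.012). The Entinostat calls were lost in p53+/+ cells (adjusted p 0.0504 to 0.053 without DMSO replicate 2 or without Entinostat replicate 1) and in p53-/- cells (adjusted p 0.22 to 0.24 without DMSO replicate 2 or without Entinostat replicate 1, 0.15 under quantile normalization). A related pseudogene, SLC7A5P2, may share reads with SLC7A5.

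SLC3A2, the heavy chain, had 105 and 95.3 RPKM under DMSO, 80.5 and 71 with Nutlin-3A, 81.7 and 74.9 with Entinostat and 74.3 and 66.1 with the combination in p53+/+ cells. Levels in p53-/- cells were 109.9 and 108, 112 and 90.4, 87 and 90.7, and 88.8 and 93.7 RPKM. It fell with the combination, with a change of -0.51 ± 0.11 (adjusted p = 0.0027) in p53+/+ cells. The changes with Nutlin-3A (-0.40 ± 0.11, adjusted p = 0.026) and Entinostat (-0.36 ± 0.11, adjusted p = 0.033) were called as well. They were lost for Nutlin-3A (adjusted p 0.061 to 0.17 without any 1 library other than Nutlin-3A replicate 1, 0.053 under quantile normalization) and for Entinostat (adjusted p 0.071 to 0.18 without any 1 of its 4 libraries, 0.052 without the filter on low values, 0.061 under quantile normalization). Entinostat and the combination in p53-/- cells were called only with the block (adjusted p = 0.014 and 0.026).

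SLC1A5 brings in glutamine in exchange for other neutral amino acids. It had 73.2 and 71.9 RPKM under DMSO, 54.9 and 53.7 with Nutlin-3A, 62.9 and 59.9 with Entinostat and 51.4 and 50.3 with the combination in p53+/+ cells, all treated groups lying below DMSO. p53-/- cells had 73.5 and 75.8, 74.1 and 65.9, 67.4 and 68.5, and 69.6 and 68.9 RPKM. The change with Nutlin-3A was -0.41 ± 0.07 (adjusted p = 0.0022) and with the combination -0.51 ± 0.07 (adjusted p = 0.00025) in p53+/+ cells. The response to the combination was more negative there than in p53-/- cells, with a difference of -0.40 ± 0.10 (adjusted p = 0.045), a call that was lost (adjusted p 0.11 to 0.14 without any 1 library other than p53+/+ combination replicate 2, 0.053 under median-of-ratios scaling, 0.056 under quantile normalization). SLC7A1, the carrier of arginine and lysine, had 21.5 and 20.6 RPKM under DMSO and 12.2 and 12.7 with the combination in p53+/+ cells, and 21.5 and 21.4 under DMSO and 17.7 and 18.2 with the combination in p53-/- cells. It changed by -0.73 ± 0.09 (adjusted p = 7.7e-05) and -0.25 ± 0.09 (adjusted p = 0.045), and the difference was -0.49 ± 0.12 (adjusted p = 0.04). The last 2 calls were lost for p53-/- cells (adjusted p 0.088 to 0.2 without any 1 of its 4 libraries, 0.24 under quantile normalization) and for the difference (adjusted p 0.084 to 0.13 without any 1 library other than p53+/+ combination replicate 2).

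SLC7A11 imports cystine in exchange for glutamate and so feeds glutathione synthesis. It had 3.1 and 3.02 RPKM under DMSO, 2.16 and 2.79 with Nutlin-3A, 1.32 and 1.69 with Entinostat and 0.752 and 1.72 with the combination in p53+/+ cells. The p53-/- libraries had 2.51 and 3.51, 4.08 and 4.85, 1.78 and 2.5, and 2.58 and 3.09 RPKM. It fell with the combination in p53+/+ cells, with a change of -1.10 ± 0.25 (adjusted p = 0.0032), and with Entinostat, with -0.84 ± 0.25 (adjusted p = 0.026). The Entinostat call was lost (adjusted p 0.099 to 0.18 without any 1 library other than Entinostat replicate 2, 0.061 without the filter on low values). Nutlin-3A alone gave -0.27 ± 0.25 (adjusted p = 0.52) in p53+/+ and 0.51 ± 0.25 (adjusted p = 0.96) in p53-/- cells, with libraries above DMSO in p53-/- cells and below it in p53+/+ cells. That difference was -0.78 ± 0.35 (adjusted p = 0.24), called with the block (adjusted p = 0.023). The difference for the combination was -1.03 ± 0.35 (adjusted p = 0.098), also called with the block (adjusted p = 0.005).

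SLC38A1, a sodium-coupled glutamine carrier, had 23 and 25.8 RPKM under DMSO, 18.5 and 20.7 with Nutlin-3A, 8.64 and 13.8 with Entinostat and 5.02 and 10.3 with the combination in p53+/+ cells. Its p53-/- levels were 19.3 and 24.9, 21.9 and 29.4, 9.11 and 16.2, and 10.2 and 17.1 RPKM. In all 8 groups replicate 1 was below replicate 2. With the combination in p53+/+ cells it had the largest fall among the members, -1.68 ± 0.35 (adjusted p = 0.0021). Its fall with Entinostat was -1.12 ± 0.35 (adjusted p = 0.033), a call that was lost (adjusted p 0.092 to 0.26 without any 1 library other than Entinostat replicate 2, 0.079 without the filter on low values, 0.055 under quantile normalization). Entinostat in p53-/- cells gave -0.82 ± 0.35 (adjusted p = 0.1), called with the block (adjusted p = 0.0018). SLC38A2, its stress-responsive relative, averaged 85.9 RPKM and changed by -0.55 ± 0.20 (adjusted p = 0.037) with the combination in p53+/+ cells, a call that was lost (adjusted p 0.085 to 0.31 without any 1 library other than combination replicate 2, 0.074 without the filter on low values, 0.14 under quantile normalization).

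SLC43A3, a carrier of purine nucleobases placed here by its family, had 14.9 and 17.1 RPKM under DMSO, 7.51 and 10.3 with Nutlin-3A, 8.55 and 10.9 with Entinostat and 4.41 and 6.83 with the combination in p53+/+ cells. Corresponding p53-/- libraries had 13 and 15.7, 12.1 and 14.4, 9.34 and 12.8, and 8.34 and 12.4 RPKM. All treated p53+/+ libraries were below those under DMSO. The combination gave -1.46 ± 0.24 (adjusted p = 0.00054) and Nutlin-3A -0.82 ± 0.24 (adjusted p = 0.035), and the Nutlin-3A call was lost (adjusted p 0.086 to 0.25 without any 1 library other than Nutlin-3A replicate 2, 0.084 without the filter on low values, 0.056 under quantile normalization). Nutlin-3A in p53-/- cells gave -0.11 ± 0.24 (adjusted p = 0.97). The difference in response to Nutlin-3A was -0.72 ± 0.34 (adjusted p = 0.28), called with the block (adjusted p = 0.0033), and that to the combination was -0.99 ± 0.34 (adjusted p = 0.1), likewise (adjusted p = 0.00063).

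**Figure D3:**
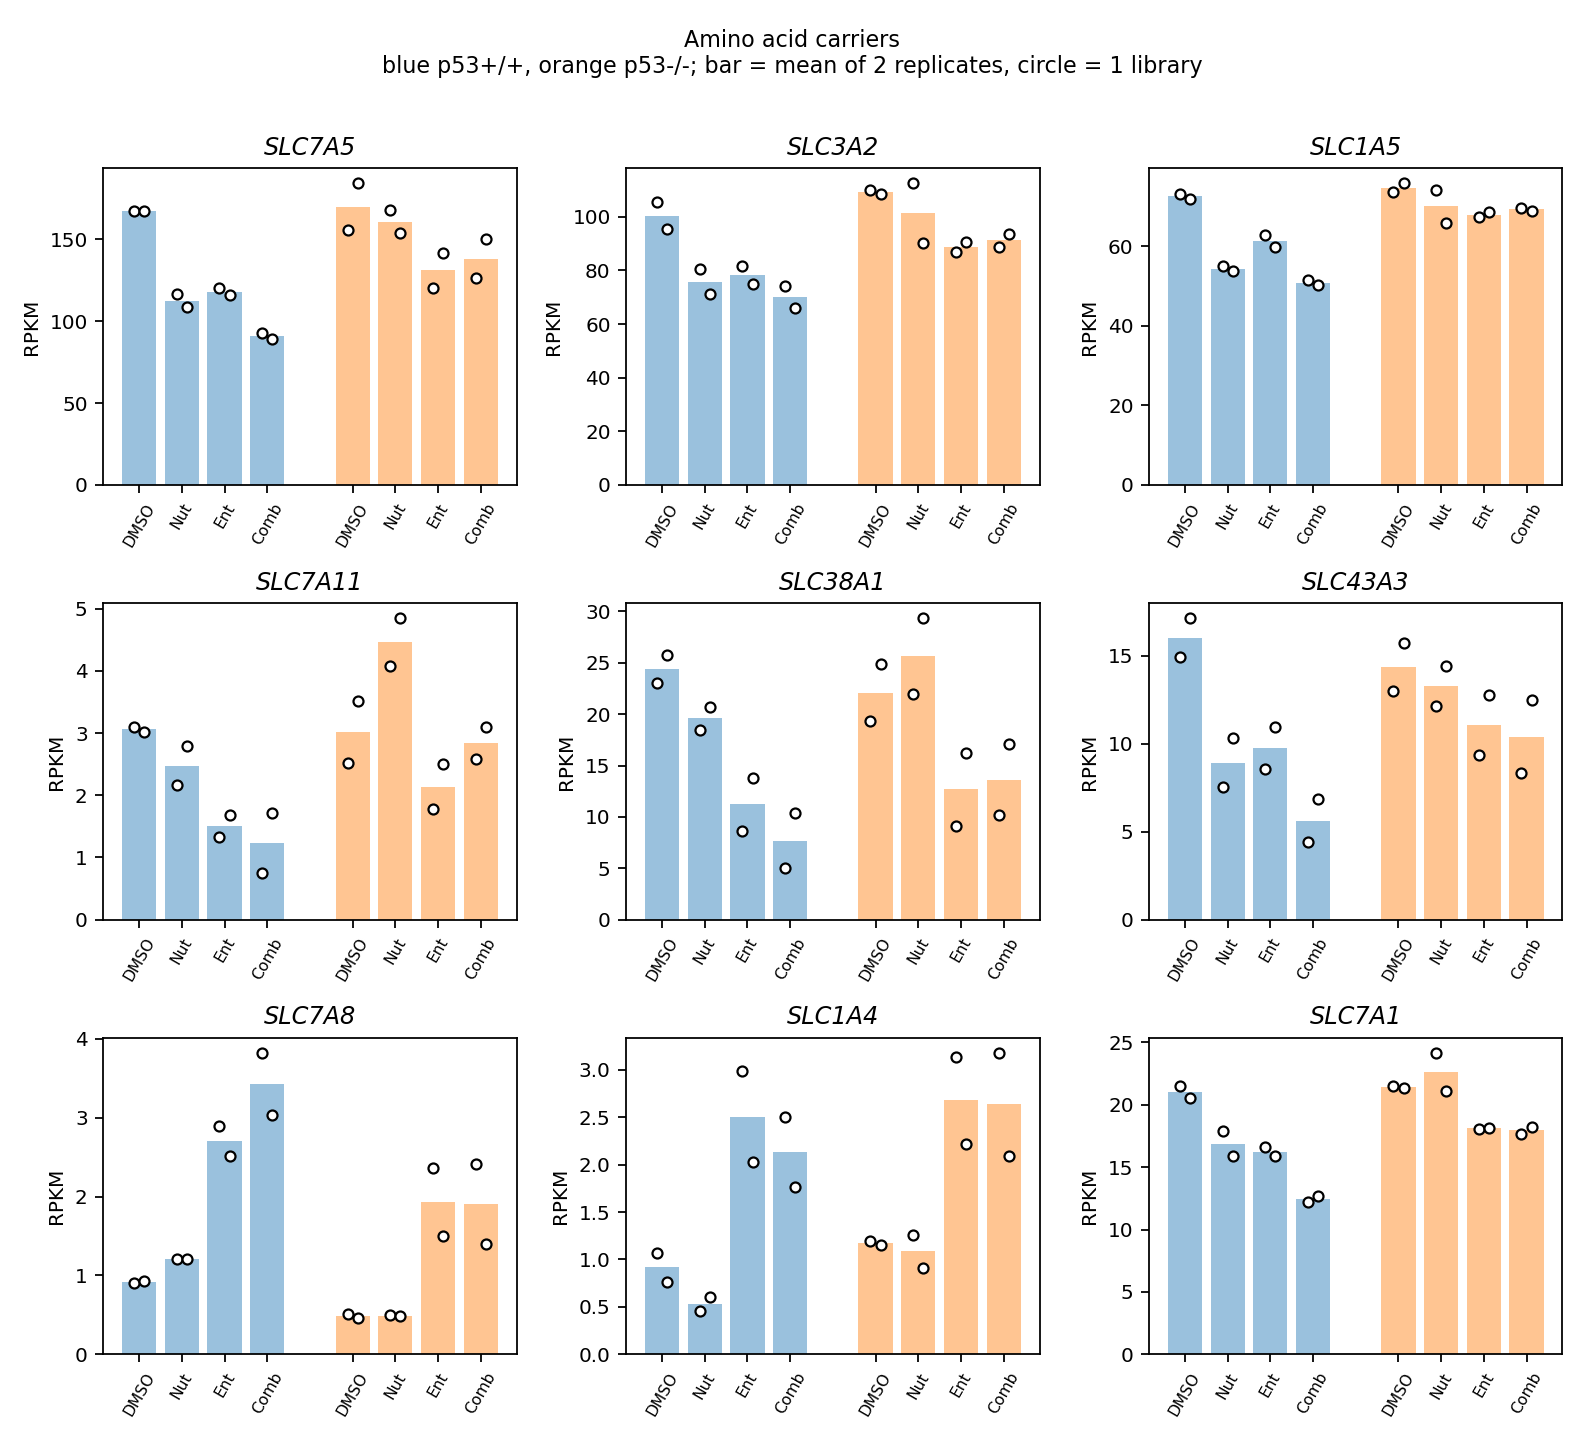
RPKM of 9 members of the amino acid families in each library (circles), bars giving the mean of both replicates and blue and orange the p53+/+ and p53-/- lines, on linear axes from 0. SLC7A5 averaged 167 RPKM under DMSO and 91 with the combination in p53+/+ cells, and 169.7 and 138 in p53-/- cells.

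Other amino acid carriers rose with Entinostat. SLC7A8, which also pairs with SLC3A2 to carry neutral amino acids, had 0.904 and 0.925 RPKM under DMSO, 2.89 and 2.51 with Entinostat and 3.82 and 3.03 with the combination in p53+/+ cells. Levels in p53-/- cells were 0.51 and 0.456, 2.36 and 1.49, and 2.41 and 1.39 RPKM. Libraries with Entinostat lay above those without it in each genotype. The rises with Entinostat were 1.18 ± 0.20 (adjusted p = 0.0024) and 1.28 ± 0.20 (adjusted p = 0.0016). SLC7A8, and SLC1A4 and SLC6A9 below, averaged under 1 RPKM in 3, 2 and 4 groups. They passed the threshold through their higher groups, so their changes are given as descriptions of levels. SLC1A4, a carrier of alanine, serine and cysteine, had 1.07 and 0.764 RPKM under DMSO and 2.99 and 2.02 with Entinostat in p53+/+ cells, and 1.19 and 1.15 under DMSO and 3.14 and 2.22 with Entinostat in p53-/- cells. It rose by 1.08 ± 0.23 (adjusted p = 0.0062) and 0.91 ± 0.23 (adjusted p = 0.013). These calls were lost in p53+/+ cells (adjusted p 0.06 to 0.079 without DMSO replicate 2 or without Entinostat replicate 1) and in p53-/- cells (adjusted p 0.053 to 0.13 without any 1 library other than Entinostat replicate 2, 0.067 under quantile normalization). SLC6A9, a glycine carrier, fell with Entinostat from 1.55 and 1.64 to 0.386 and 0.803 RPKM in p53+/+ cells (-0.96 ± 0.21, adjusted p = 0.0064), a call that was lost (adjusted p 0.084 without Entinostat replicate 1).

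Monocarboxylate carriers export lactate or import pyruvate and related acids together with a proton. SLC16A3, the lactate exporter of glycolytic cells, averaged 122 RPKM and was not called in any comparison. SLC16A1, its widely expressed relative, had 29.4 and 31.8 RPKM under DMSO, 28.4 and 27.2 with Nutlin-3A, 30.1 and 31.8 with Entinostat and 25.7 and 26.6 with the combination in p53+/+ cells, and 28.6 and 32.7, 29.2 and 38.6, 33.3 and 36.9, and 35.9 and 36.7 in p53-/- cells. It was not called either. With the block the combination was called in both genotypes, at -0.22 in p53+/+ cells (adjusted p = 0.047) and 0.24 in p53-/- cells (adjusted p = 0.041), as was their difference (adjusted p = 0.022). SLC16A10, which carries tryptophan, tyrosine and phenylalanine, had 1.85 and 1.85 RPKM under DMSO, 4.0 and 3.25 with Nutlin-3A, 2.86 and 2.65 with Entinostat and 5.72 and 4.43 with the combination in p53+/+ cells. It rose by 0.81 ± 0.16 (adjusted p = 0.0043) with Nutlin-3A and by 1.24 ± 0.16 (adjusted p = 0.00014) with the combination, and the Nutlin-3A call was lost (adjusted p 0.059 without Nutlin-3A replicate 1). SLC16A14, an orphan carrier, had 5.63 and 5.2 RPKM under DMSO and 1.54 and 2.67 with the combination in p53+/+ cells, a change of -1.22 ± 0.26 (adjusted p = 0.0027). SLC16A5 had 13.4 and 12.3 RPKM under DMSO and 6.94 and 8.44 with Entinostat there, a change of -0.71 ± 0.14 (adjusted p = 0.0042), lost (adjusted p 0.059 without Entinostat replicate 1). Of the 7 members 1 rose and 0 fell with Nutlin-3A, 1 rose and 3 fell with Entinostat and 1 rose and 2 fell with the combination in p53+/+ cells, and 1 rose and 1 fell with Entinostat in p53-/- cells.

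Mitochondrial carriers, the SLC25 family, exchange nucleotides, phosphate and metabolites across the inner membrane. Of 37 members 2 rose and 4 fell with Nutlin-3A, 4 rose and 7 fell with Entinostat and 6 rose and 12 fell with the combination in p53+/+ cells. With Entinostat 3 rose and 7 fell in p53-/- cells and 3 rose and 9 fell with the combination. The ADP/ATP carriers differed from each other. SLC25A4, the form of muscle and heart, had 7.58 and 6.67 RPKM under DMSO and 17.5 and 12.7 with Entinostat in p53+/+ cells, and 8.42 and 7.97 under DMSO and 19.5 and 13.9 with Entinostat in p53-/- cells. In both genotypes the Entinostat libraries were above those under DMSO, and the rises were 1.02 ± 0.24 (adjusted p = 0.0099) and 0.97 ± 0.24 (adjusted p = 0.012). These calls were lost in p53+/+ cells (adjusted p 0.072 to 0.11 without DMSO replicate 2 or without Entinostat replicate 1) and in p53-/- cells (adjusted p 0.069 to 0.13 without DMSO replicate 2 or without Entinostat replicate 1). SLC25A5, the form of dividing cells, had 422 and 383 RPKM under DMSO and 478 and 404 with Entinostat in p53+/+ cells, a change of 0.13 ± 0.12 (adjusted p = 0.47). It was called only with the block, for the combination in p53+/+ cells (adjusted p = 0.00029) and for its difference between genotypes (adjusted p = 0.005).

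SLC25A38, which supplies glycine for haem synthesis, had 16 and 14.9 RPKM under DMSO, 18.7 and 17.3 with Nutlin-3A and 8.81 and 10.3 with Entinostat in p53+/+ cells, and 15.1 and 14.5, 15.1 and 13.7 and 7.69 and 9.18 in p53-/- cells. In each genotype the Entinostat libraries were below those with DMSO or Nutlin-3A. The changes with Entinostat were -0.67 ± 0.13 (adjusted p = 0.0034) and -0.78 ± 0.13 (adjusted p = 0.0017), and the first was lost (adjusted p 0.051 without Entinostat replicate 1). SLC25A10, the dicarboxylate carrier, had 42.2 and 36.7 RPKM under DMSO and 23.7 and 27.4 with the combination in p53+/+ cells, a change of -0.62 ± 0.12 (adjusted p = 0.0014). SLC25A40, linked to glutathione import, had 7.64 and 5.58 RPKM under DMSO and 3.21 and 5.02 with the combination in p53+/+ cells, and 7.06 and 5.39 under DMSO and 8.85 and 7.86 with the combination in p53-/- cells. The difference in response was -1.04 ± 0.28 (adjusted p = 0.049), a call that was lost (adjusted p 0.059 to 0.19 without any 1 library other than p53+/+ combination replicate 2, 0.0504 with a pseudocount of 0.1, 0.095 without the filter on low values, 0.0501 under median-of-ratios scaling). SLC25A39 (140.2 RPKM on average), the mitochondrial glutathione carrier, was not called in any comparison, though with the block it was for Entinostat in p53-/- cells (adjusted p = 0.024) and for the combination there (adjusted p = 0.018).

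The nucleoside and nucleotide sugar group moves nucleosides across membranes (SLC29) and feeds sugar nucleotides to the Golgi apparatus and endoplasmic reticulum (SLC35). Of 28 members 2 rose and 0 fell with Nutlin-3A, 3 rose and 6 fell with Entinostat and 4 rose and 6 fell with the combination in p53+/+ cells. With Entinostat 1 rose and 7 fell in p53-/- cells and 1 rose and 8 fell with the combination. SLC29A3, the nucleoside carrier of lysosomes, had 2.78 and 2.27 RPKM under DMSO, 4.45 and 4.43 with Nutlin-3A, 3.03 and 2.54 with Entinostat and 5.27 and 4.48 with the combination in p53+/+ cells. p53-/- cells had 2.71 and 2.29, 2.32 and 2.19, 2.22 and 2.63, and 2.35 and 2.62 RPKM. The 4 p53+/+ libraries with Nutlin-3A were above the other 12. In p53+/+ cells SLC29A3 changed with Nutlin-3A by 0.71 ± 0.13 (adjusted p = 0.0028) and with the combination by 0.83 ± 0.13 (adjusted p = 0.00043). The differences from p53-/- cells were 0.84 ± 0.19 (adjusted p = 0.02) for Nutlin-3A and 0.84 ± 0.19 (adjusted p = 0.025) for the combination. They were lost for Nutlin-3A (adjusted p 0.052 to 0.099 without either p53+/+ Nutlin-3A library, p53+/+ DMSO replicate 2, p53-/- DMSO replicate 1 or without p53-/- Nutlin-3A replicate 2) and for the combination (adjusted p 0.056 to 0.11 without either p53-/- DMSO library, either p53-/- combination library, p53+/+ DMSO replicate 2 or without p53+/+ combination replicate 1). SLC29A1, the nucleoside carrier of the cell surface, averaged 42.3 RPKM and changed by -0.26 ± 0.08 (adjusted p = 0.052) with Nutlin-3A in p53+/+ cells, called with the block (adjusted p = 0.02).

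SLC35F2, known for taking up the drug YM155, had 26.5 and 28.1 RPKM under DMSO, 25.8 and 25.4 with Nutlin-3A, 11.8 and 15.8 with Entinostat and 9.37 and 13.8 with the combination in p53+/+ cells. The p53-/- libraries had 27 and 28.1, 26.5 and 29.4, 13.2 and 17.7, and 12.5 and 18.4 RPKM. Libraries with Entinostat lay below those without it in each genotype. The changes with Entinostat were -0.97 ± 0.21 (adjusted p = 0.0064) and -0.83 ± 0.21 (adjusted p = 0.012), lost in p53+/+ cells (adjusted p 0.079 without Entinostat replicate 1) and in p53-/- cells (adjusted p 0.0503 to 0.13 without any 1 library other than Entinostat replicate 2). SLC35C1, the GDP-fucose carrier, changed by -0.73 ± 0.12 (adjusted p = 0.0019) with Entinostat in p53-/- cells, from 8.72 and 8.88 to 5.07 and 5.15 RPKM. SLC35B1 (38.7 RPKM on average), which exchanges ATP and ADP in the endoplasmic reticulum, changed by -0.56 ± 0.10 (adjusted p = 0.00061) with the combination in p53+/+ cells. SLC35B2, the carrier of the sulfate donor PAPS, averaged 21.5 RPKM and was not called in any comparison.

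Ion exchangers set cell volume and pH. Of 21 members 5 rose and 1 fell with Nutlin-3A, 5 rose and 6 fell with Entinostat and 8 rose and 5 fell with the combination in p53+/+ cells. With Entinostat 6 rose and 5 fell in p53-/- cells and 6 rose and 6 fell with the combination. SLC12A4, a potassium and chloride exporter, had 5.57 and 5.74 RPKM under DMSO, 10.7 and 11.1 with Nutlin-3A, 7.47 and 6.3 with Entinostat and 13.2 and 10.9 with the combination in p53+/+ cells. Its p53-/- levels were 4.57 and 5.41, 4.95 and 4.63, 6.31 and 4.74, and 6.0 and 4.88 RPKM. The 4 p53+/+ libraries with Nutlin-3A were again above the other 12. In p53+/+ cells SLC12A4 changed with Nutlin-3A by 0.89 ± 0.15 (adjusted p = 0.0014) and with the combination by 1.02 ± 0.15 (adjusted p = 0.00026). The differences from p53-/- cells were 0.94 ± 0.21 (adjusted p = 0.019) and 0.91 ± 0.21 (adjusted p = 0.029), lost for Nutlin-3A (adjusted p 0.057 to 0.085 without either p53+/+ DMSO library, either p53+/+ Nutlin-3A library, p53-/- DMSO replicate 2 or without p53-/- Nutlin-3A replicate 2) and for the combination (adjusted p 0.084 to 0.12 without either p53+/+ DMSO library, p53+/+ combination replicate 1, p53-/- DMSO replicate 2 or without p53-/- combination replicate 2, 0.056 without the filter on low values).

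SLC12A7, another potassium and chloride exporter, had 9.16 and 9.52 RPKM under DMSO and 6.29 and 5.85 with Entinostat in p53+/+ cells, and 8.76 and 10.3 under DMSO and 5.39 and 5.66 with Entinostat in p53-/- cells. The groups did not overlap in either genotype, and the changes were -0.58 ± 0.09 (adjusted p = 0.0018) and -0.73 ± 0.09 (adjusted p = 0.00067). SLC12A2, which imports sodium, potassium and chloride, rose with Entinostat by 0.56 ± 0.13 (adjusted p = 0.01) in p53+/+ cells and by 0.48 ± 0.13 (adjusted p = 0.02) in p53-/- cells. These calls were lost in p53+/+ cells (adjusted p 0.076 to 0.12 without DMSO replicate 1 or without Entinostat replicate 1) and in p53-/- cells (adjusted p 0.14 to 0.15 without DMSO replicate 1 or without Entinostat replicate 1). SLC12A8 changed by -0.89 ± 0.21 (adjusted p = 0.0097) with Entinostat in p53+/+ cells, lost (adjusted p 0.086 to 0.12 without DMSO replicate 2 or without Entinostat replicate 1). SLC4A2 (37.3 RPKM on average), a chloride and bicarbonate exchanger, changed by -0.38 ± 0.11 (adjusted p = 0.0099) with the combination in p53+/+ cells, lost (adjusted p 0.074 without combination replicate 1, 0.25 under quantile normalization). SLC26A6, an exchanger of chloride, oxalate and bicarbonate, had 9.23 and 9.43 RPKM under DMSO and 6.28 and 7.92 with Nutlin-3A in p53+/+ cells. Its change was -0.38 ± 0.12 (adjusted p = 0.041), lost (adjusted p 0.13 to 0.32 without any 1 library other than Nutlin-3A replicate 2, 0.059 without the filter on low values, 0.057 under median-of-ratios scaling, 0.058 under quantile normalization).

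The group labelled phosphate and sulfate held 8 members, set by family number (SLC17, SLC20 and SLC37) and not all carriers of these ions. Of these 1 rose and 0 fell with Nutlin-3A, 1 rose and 1 fell with Entinostat and 1 rose and 0 fell with the combination in p53+/+ cells. With Entinostat 2 rose and 2 fell in p53-/- cells and 2 rose and 1 fell with the combination. SLC20A1, the sodium-coupled importer of phosphate, had 39.6 and 40.9 RPKM under DMSO, 46.2 and 41.3 with Nutlin-3A, 63.7 and 58.2 with Entinostat and 90.0 and 70.4 with the combination in p53+/+ cells. Corresponding p53-/- libraries had 39 and 39.1, 40.3 and 39.2, 50.4 and 54, and 51.5 and 52.4 RPKM. Libraries with Entinostat were above those without it in both genotypes, and the p53+/+ combination libraries were the highest of all. The rise with Entinostat was 0.59 ± 0.11 (adjusted p = 0.0029) in p53+/+ and 0.41 ± 0.11 (adjusted p = 0.014) in p53-/- cells, and with the combination 0.98 ± 0.11 (adjusted p = 5.2e-05) and 0.41 ± 0.11 (adjusted p = 0.013). The difference for the combination was 0.57 ± 0.15 (adjusted p = 0.048), lost (adjusted p 0.11 to 0.17 without any 1 library other than p53+/+ combination replicate 2, 0.07 without the filter on low values). In p53-/- cells the Entinostat call was lost (adjusted p 0.062 to 0.07 without any 1 of its 4 libraries) and the combination call (adjusted p 0.06 to 0.075 without any 1 library other than combination replicate 2). SLC17A9, which loads nucleotides into vesicles, changed by -0.70 ± 0.16 (adjusted p = 0.009) with Entinostat in p53-/- cells, lost (adjusted p 0.061 to 0.11 without DMSO replicate 2 or without Entinostat replicate 1). SLC37A4 (19.7 RPKM), the glucose-6-phosphate carrier of the endoplasmic reticulum, and SLC37A3 (12.8 RPKM) were not called in any comparison. With the block SLC37A4 was called for Nutlin-3A in p53+/+ cells (adjusted p = 0.046) and between genotypes (adjusted p = 0.0039).

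Carriers of vitamins, folate, choline, peptides and fatty acids numbered 28. Of these 4 rose and 1 fell with Nutlin-3A, 6 rose and 4 fell with Entinostat and 11 rose and 5 fell with the combination in p53+/+ cells. With Entinostat 6 rose and 4 fell in p53-/- cells and 8 rose and 4 fell with the combination. SLC19A1, the reduced folate carrier that also takes up methotrexate, had 20.7 and 19.2 RPKM under DMSO, 16.1 and 14.6 with Nutlin-3A, 7.83 and 7.85 with Entinostat and 7.04 and 7.88 with the combination in p53+/+ cells. Levels in p53-/- cells were 18.8 and 21.5, 18.2 and 16.5, 7.66 and 9.5, and 7.53 and 9.03 RPKM. Every library with Entinostat was below every library without it. The changes with Entinostat were -1.29 ± 0.12 (adjusted p = 0.00023) and -1.19 ± 0.12 (adjusted p = 0.00043), the largest falls among the members with Entinostat in each genotype.

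SLC46A1, the proton-coupled folate carrier, had 4.93 and 4.95 RPKM under DMSO, 9.64 and 8.62 with Nutlin-3A, 5.24 and 5.32 with Entinostat and 7.07 and 7.8 with the combination in p53+/+ cells. p53-/- cells had 2.92 and 3.56, 3.37 and 3.18, 4.06 and 3.98, and 4.08 and 4.07 RPKM. Both p53+/+ Nutlin-3A libraries were above all others. The change with Nutlin-3A was 0.82 ± 0.10 (adjusted p = 0.00019) in p53+/+ cells, and the difference from p53-/- cells was 0.80 ± 0.15 (adjusted p = 0.0057). With the combination the change was 0.54 ± 0.10 (adjusted p = 0.0012) in p53+/+ cells, and the difference was 0.25 ± 0.15 (adjusted p = 0.33). SLC46A3, a lysosomal relative, had 0.617 and 0.344 RPKM under DMSO and 1.81 and 1.35 with Entinostat in p53+/+ cells, and 0.556 and 0.407 under DMSO and 1.58 and 1.44 with Entinostat in p53-/- cells. It changed by 1.09 ± 0.18 (adjusted p = 0.0018) and 1.04 ± 0.18 (adjusted p = 0.0021). SLC46A3 was below 1 RPKM in the 4 groups without Entinostat and passed the threshold only through the groups with it, so this rise is a description of its levels.

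Fatty acid carriers of the SLC27 family join uptake to activation by coenzyme A. SLC27A1 had 4.83 and 4.0 RPKM under DMSO, 8.43 and 7.91 with Nutlin-3A, 5.64 and 5.99 with Entinostat and 8.31 and 7.78 with the combination in p53+/+ cells. The p53-/- libraries had 3.27 and 2.42, 3.25 and 2.16, 4.11 and 3.13, and 4.56 and 3.1 RPKM. The change with Nutlin-3A was 0.82 ± 0.20 (adjusted p = 0.014) in p53+/+ cells, lost (adjusted p 0.053 to 0.12 without any 1 library other than DMSO replicate 1). The difference from p53-/- cells was 0.90 ± 0.28 (adjusted p = 0.086), called with the block (adjusted p = 0.0047). SLC27A2, which activates very long chain fatty acids, had 7.55 and 8.12 RPKM under DMSO and 10.5 and 12.4 with Entinostat in p53+/+ cells, and 3.59 and 3.92 under DMSO and 9.13 and 8.29 with Entinostat in p53-/- cells. It rose with Entinostat by 0.51 ± 0.11 (adjusted p = 0.0077) and 1.11 ± 0.11 (adjusted p = 0.00043), the first call being lost (adjusted p 0.056 without DMSO replicate 1 or without Entinostat replicate 2). SLC27A4 (17.1 RPKM on average), the fatty acid carrier of enterocytes, changed by 0.31 ± 0.08 (adjusted p = 0.02) with Nutlin-3A in p53+/+ cells, lost (adjusted p 0.098 to 0.17 without any 1 library other than Nutlin-3A replicate 2).

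SLC52A2 and SLC52A3 import riboflavin. SLC52A2 had 44.3 and 43.5 RPKM under DMSO and 31.1 and 27.9 with Entinostat in p53+/+ cells, and 53.3 and 51.9 under DMSO and 29.1 and 30.7 with Entinostat in p53-/- cells. It fell in both, with changes of -0.57 ± 0.11 (adjusted p = 0.0049) and -0.80 ± 0.11 (adjusted p = 0.001). SLC52A3 had 2.78 and 3.25 RPKM under DMSO, 3.74 and 3.9 with Nutlin-3A, 4.31 and 4.0 with Entinostat and 7.46 and 5.77 with the combination in p53+/+ cells. Its p53-/- levels were 1.25 and 1.42, 1.38 and 1.12, 1.06 and 1.28, and 1.35 and 1.05 RPKM, below every p53+/+ library. It rose with the combination in p53+/+ cells by 1.01 ± 0.15 (adjusted p = 0.00026), and the difference from p53-/- cells was 1.13 ± 0.21 (adjusted p = 0.012), lost (adjusted p 0.054 to 0.057 without p53+/+ DMSO replicate 1 or without p53-/- DMSO replicate 2). SLC44A2, a choline carrier, had 27.3 and 24.4 RPKM under DMSO and 18 and 18.2 with Nutlin-3A in p53+/+ cells, a change of -0.50 ± 0.16 (adjusted p = 0.044), lost (adjusted p 0.1 to 0.22 without any 1 of its 4 libraries, 0.088 without the filter on low values, 0.081 under quantile normalization). SLC10A3, an orphan of the bile acid carrier family, changed by -0.62 ± 0.11 (adjusted p = 0.00081) with the combination in p53+/+ cells and by -0.72 ± 0.11 (adjusted p = 0.0011) in p53-/- cells.

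The remaining members called for a difference in the Nutlin-3A response were SLC37A1, a phosphate and sugar phosphate exchanger, and SLC48A1, a haem carrier of endosomes, which were singled out after their values were seen. SLC37A1 had 2.69 and 3.03 RPKM under DMSO and 4.45 and 4.41 with Nutlin-3A in p53+/+ cells, and 3.61 and 3.61 under DMSO and 3.37 and 3.26 with Nutlin-3A in p53-/- cells, a difference of 0.66 ± 0.15 (adjusted p = 0.018). SLC48A1 had 4.94 and 5.14 RPKM under DMSO and 7.64 and 7.56 with Nutlin-3A in p53+/+ cells, and 4.97 and 4.86 under DMSO and 4.99 and 4.1 with Nutlin-3A in p53-/- cells, a difference of 0.66 ± 0.14 (adjusted p = 0.017). Leaving out single libraries ended the call of SLC37A1 in 5 of 8 cases (adjusted p up to 0.081, without p53+/+ DMSO replicate 1) and that of SLC48A1 in 6 of 8 cases (adjusted p up to 0.071, without p53-/- Nutlin-3A replicate 2).

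Some members match by symbol but are not carriers. SLC9A3R1 and SLC9A3R2 are scaffolds that tether transporters to the cell cortex. SLC9A3R1 averaged 66.5 RPKM and was not called in any comparison, though with the block it was for Entinostat (adjusted p = 0.012) and the combination (adjusted p = 0.013) in p53+/+ cells. SLC9A3R2 changed by -0.44 ± 0.13 (adjusted p = 0.029) with Entinostat in p53-/- cells, lost (adjusted p 0.062 to 0.23 without any 1 library other than Entinostat replicate 2, 0.053 without the filter on low values). SLC2A4RG, a DNA-binding regulator named after a glucose carrier gene, had 32.7 and 30.8 RPKM under DMSO, 20.8 and 23.1 with Nutlin-3A, 21.4 and 22.5 with Entinostat and 14.7 and 16 with the combination in p53+/+ cells, the treated groups lying below DMSO. Its changes were -0.52 ± 0.10 (adjusted p = 0.0031), -0.52 ± 0.10 (adjusted p = 0.0036) and -1.02 ± 0.10 (adjusted p = 3e-05). SLC4A1AP, a protein that binds an anion exchanger, changed by -0.64 ± 0.09 (adjusted p = 0.00026) with the combination there. SLC7A6OS (7.89 RPKM), which lies opposite a carrier gene, was called only with the block, for the combination in p53+/+ cells (adjusted p = 0.019) and for Entinostat and the combination in p53-/- cells (adjusted p = 0.035 and 0.012).

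Levels under DMSO set the 2 genotypes apart for 11 members. SLC1A3, a glutamate and aspartate importer best known from glia, had 3.96 and 4.94 RPKM in p53+/+ and 0.374 and 0.306 in p53-/- cells under DMSO, a difference of -2.55 ± 0.22 (adjusted p = 3.9e-05). Its lowest p53+/+ library, with Entinostat, had 2.29 RPKM and its highest p53-/- library, also with Entinostat, 0.834. SLC22A17, the receptor for the iron-binding protein lipocalin-2, had 1.64 and 1.18 RPKM against 0.172 and 0.252, a difference of -1.42 ± 0.22 (adjusted p = 0.0022). SLC27A2 had 7.55 and 8.12 against 3.59 and 3.92 (-0.97 ± 0.11, adjusted p = 0.00032) and SLC52A3 2.78 and 3.25 against 1.25 and 1.42 (-0.93 ± 0.15, adjusted p = 0.0027). SLC25A27, a mitochondrial uncoupling protein, had 0.804 and 1.13 against 0.41 and 0.318 (-0.76 ± 0.18, adjusted p = 0.029), and SLC46A1 4.93 and 4.95 against 2.92 and 3.56 (-0.55 ± 0.10, adjusted p = 0.0084). Besides SLC2A1, SLC25A44, a carrier of branched chain amino acids into mitochondria, and SLC35A1, the carrier of the sialic acid donor, were higher in p53-/- cells. SLC25A44 had 6.22 and 6.32 RPKM against 10.0 and 10.7 (0.68 ± 0.13, adjusted p = 0.01), and SLC35A1 9.94 and 10.1 against 14.5 and 13.4 (0.46 ± 0.11, adjusted p = 0.026). Calls were lost for SLC25A27 (adjusted p 0.055 to 0.22 without any 1 of its 4 libraries, 0.057 without the filter on low values, 0.086 under quantile normalization), SLC46A1 (adjusted p 0.059 to 0.089 without any 1 library other than p53-/- DMSO replicate 2), SLC25A44 (adjusted p 0.063 to 0.1 without any 1 library other than p53-/- DMSO replicate 1) and SLC35A1 (adjusted p 0.089 to 0.18 without any 1 of its 4 libraries). SLC25A27 rose with Entinostat in p53-/- cells by 0.84 ± 0.18 (adjusted p = 0.0058), to 0.918 and 1.18 RPKM, a call that was lost (adjusted p 0.063 under quantile normalization). SLC1A3 and SLC22A17 averaged below 1 RPKM in all p53-/- groups and passed the threshold only through the p53+/+ groups, and SLC25A27 passed it through the groups with Entinostat, so their differences are descriptions of levels. The highest p53-/- library for SLC22A17 had 0.37 RPKM and the lowest p53+/+ library 1.18. The remaining members, SLC25A11, a mitochondrial carrier of oxoglutarate and malate, and SLC9A7, a sodium and proton exchanger, had -0.36 ± 0.07 (adjusted p = 0.013) and -0.46 ± 0.11 (adjusted p = 0.038) and were named after their values were seen. Leaving out single libraries ended these calls in 4 of 4 cases (adjusted p up to 0.13, without p53-/- DMSO replicate 2) and in 4 of 4 cases (adjusted p up to 0.22, without p53+/+ DMSO replicate 2).

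**Figure D4:**
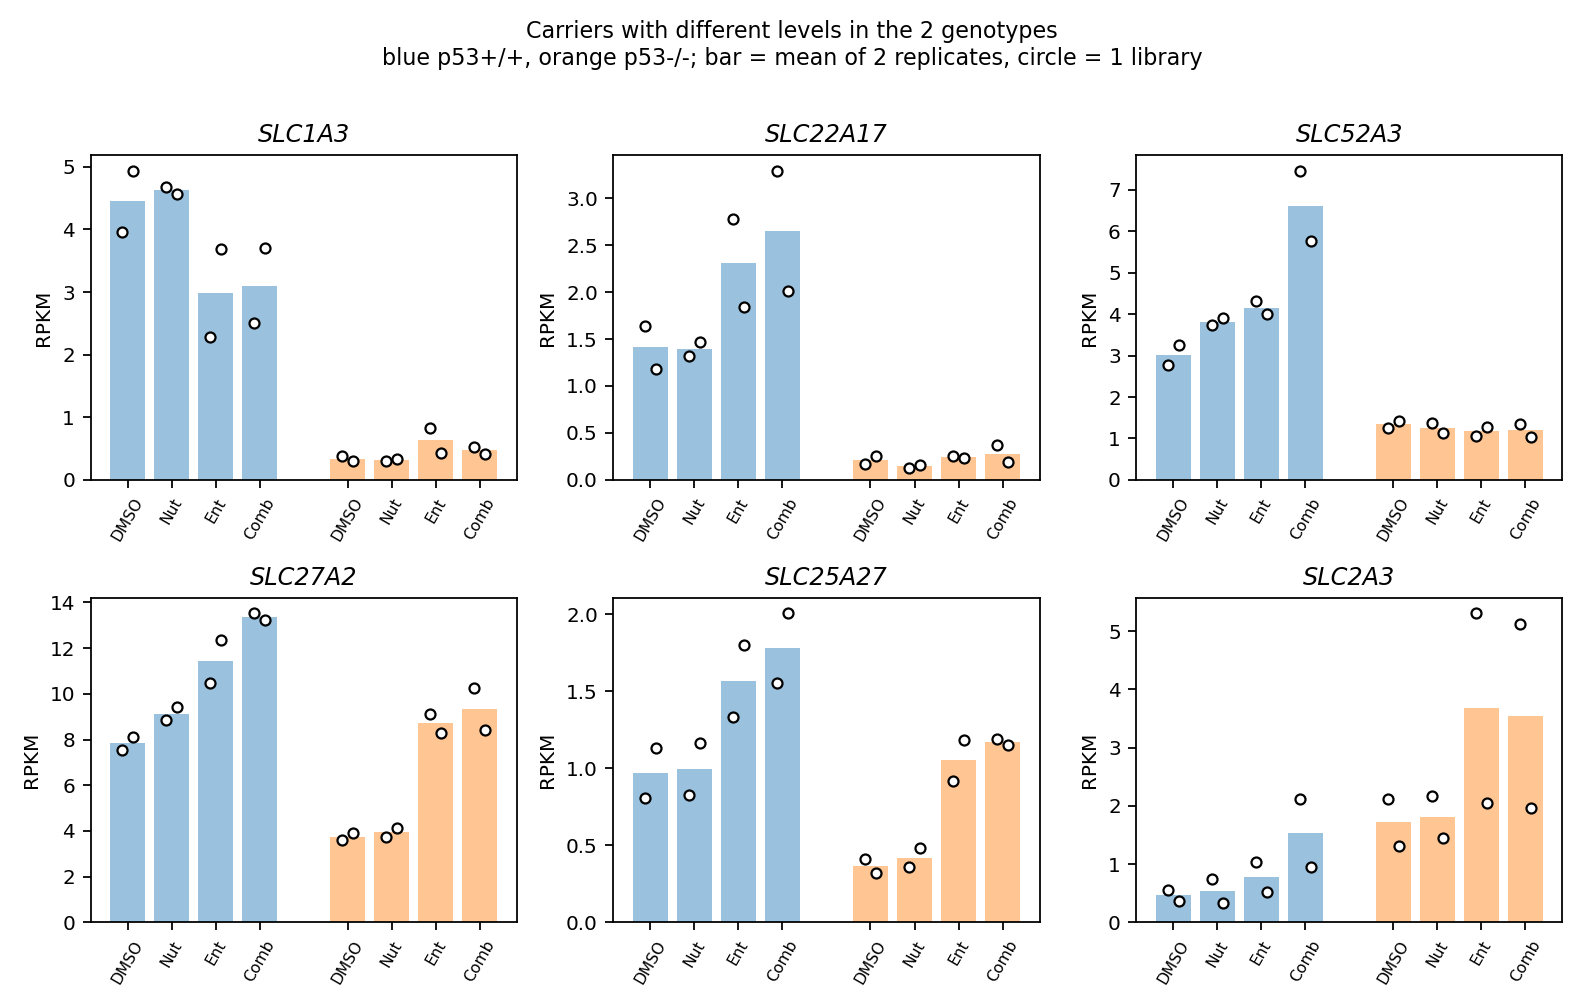
RPKM of SLC1A3, SLC22A17, SLC52A3, SLC27A2, SLC25A27 and SLC2A3 in each library (circles), bars giving the mean of both replicates and blue and orange the p53+/+ and p53-/- lines, on linear axes from 0. SLC1A3 averaged 4.45 RPKM in p53+/+ and 0.34 in p53-/- cells under DMSO.

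The Entinostat responses of the 2 genotypes, which share no libraries, were set side by side. Of 76 members called in p53+/+ and 70 in p53-/- cells, 58 were called in both, 76.3% and 82.9% of each list, with 26 higher in both, 32 lower in both and 0 in opposite directions. The changes had the same sign for 172 of 197 members, and Pearson's r across the members was 0.92. Over all 12466 tested genes 3434 and 3520 were called, and the 2643 called in both were 77% and 75.1% of each list, with 1 in opposite directions. The sign was the same for 86.6% of all genes, beside 87.3% of members, and r across all genes was 0.91. Members were thus near all genes in these measures. These points are genes of the same libraries, whose same-numbered replicates deviate together, and r is given as a description.

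**Figure D5:**
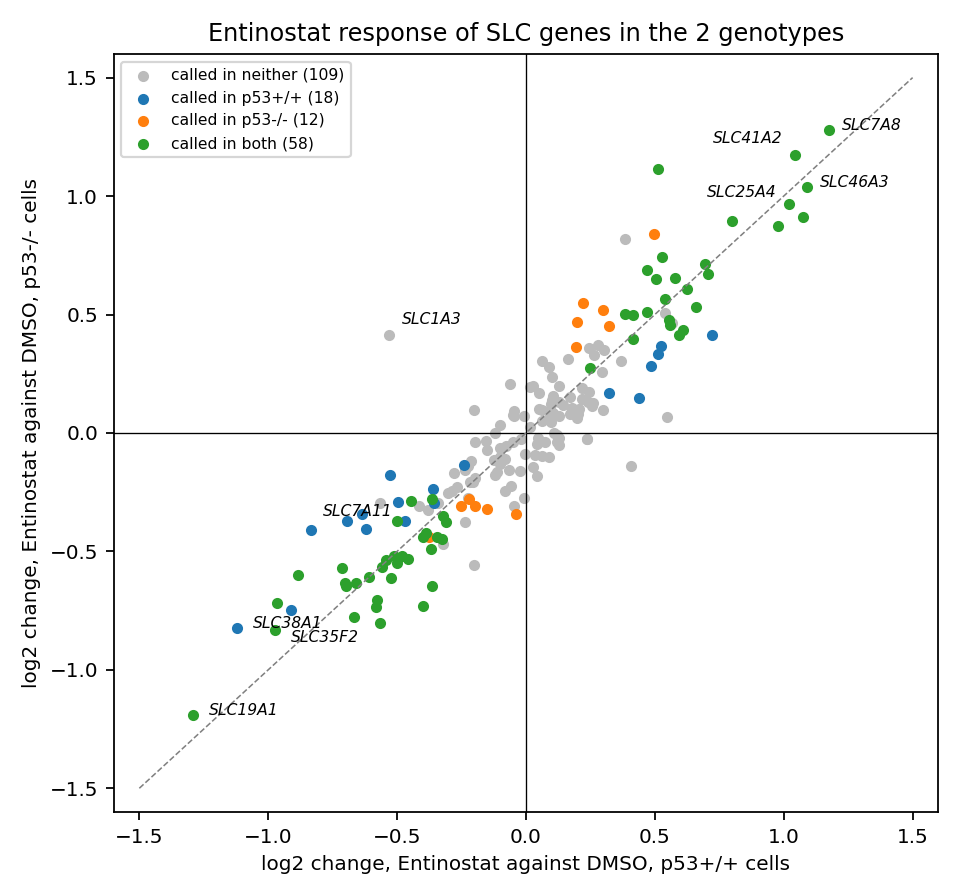
Log2 change with Entinostat against DMSO in p53+/+ cells (horizontal) and p53-/- cells (vertical) for 197 SLC genes, coloured by the comparison in which they were called, with a dashed line where both are equal. SLC7A8 (1.18 and 1.28) and SLC19A1 (-1.29 and -1.19) lie at the ends of the line. SLC7A8 averaged below 1 RPKM in 3 groups and passed the threshold for members through the others.

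Carriers with other names, partner proteins and primary pumps were read from a list of 42 genes, of which 39 were tested. With Nutlin-3A 2 rose and 4 fell in p53+/+ cells, 5.13% and 10.3%, beside 7.89% and 9.5% of all genes. The phosphate exporter XPR1 changed by 0.49 ± 0.13 (adjusted p = 0.018) and the calcium pump ATP2B1 by -0.45 ± 0.11 (adjusted p = 0.014). The sodium pump subunit ATP1B3 changed by -0.42 ± 0.07 (adjusted p = 0.0019) and the mitochondrial pyruvate carrier subunit MPC2 by -0.38 ± 0.12 (adjusted p = 0.041). The response to Nutlin-3A differed between genotypes for ATP2B1, by -0.63 ± 0.16 (adjusted p = 0.03), and for ATP1B3, by -0.42 ± 0.10 (adjusted p = 0.032). With Entinostat 8 rose and 7 fell in p53+/+ cells, 20.5% and 17.9%, beside 15.1% and 12.4% of all genes. With the same drug 10 rose and 5 fell in p53-/- cells, 25.6% and 12.8%, beside 15% and 13.3%. ABCB1, the multidrug efflux pump, changed by 1.55 ± 0.22 (adjusted p = 0.0011) and 1.93 ± 0.22 (adjusted p = 0.00046), and ABCG2, another drug efflux pump, by 1.03 ± 0.13 (adjusted p = 0.00068) and 0.95 ± 0.13 (adjusted p = 0.0009). Both were low under DMSO, ABCB1 averaging 0.90 and 0.69 RPKM and ABCG2 0.60 and 0.47 RPKM in p53+/+ and p53-/- cells. With Entinostat these means were 3.64 and 4.11, and 1.76 and 1.36 RPKM. Other genes that rose and those that fell with Entinostat are not named here. With the combination 10 rose and 8 fell in p53+/+ cells, 25.6% and 20.5%, beside 23.2% and 26.8%, and 11 rose and 6 fell in p53-/- cells, 28.2% and 15.4%, beside 17.1% and 14.7%. The list was not tested against all genes. With Nutlin-3A 0 rose and 0 fell in p53-/- cells. These calls were not recomputed without single libraries.

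Factors known to act on carrier genes were read in the same way, 11 of 12 being tested. With Nutlin-3A 2 rose and 0 fell in p53+/+ cells, 18.2% and 0%, beside 7.89% and 9.5% of all genes. With Entinostat 2 rose and 3 fell in p53+/+ cells, 18.2% and 27.3%, beside 15.1% and 12.4%, and 1 rose and 1 fell in p53-/- cells, 9.09% each way, beside 15% and 13.3%. With the combination 2 rose and 2 fell in p53+/+ cells, 18.2% each way, beside 23.2% and 26.8%, and 1 rose and 1 fell in p53-/- cells, 9.09% each way, beside 17.1% and 14.7%. The drug calls were of 5 factors. ATF4, DDIT3, TFEB, HIF1A, SREBF1 and SREBF2 were not called in any comparison, and TXNIP was too low to be tested. In p53+/+ cells ATF4 changed by -0.27 ± 0.18 (adjusted p = 0.35) with Nutlin-3A and -0.10 ± 0.18 (adjusted p = 0.71) with Entinostat. With the combination it changed by -0.21 ± 0.18 (adjusted p = 0.34). ATF3, a stress-response factor, changed by 1.53 ± 0.25 (adjusted p = 0.0014) with Nutlin-3A, 0.75 ± 0.25 (adjusted p = 0.045) with Entinostat and 2.15 ± 0.25 (adjusted p = 7.7e-05) with the combination in p53+/+ cells. Its changes in p53-/- cells were 1.17 ± 0.25 (adjusted p = 0.0063) with Entinostat and 1.38 ± 0.25 (adjusted p = 0.0026) with the combination. MYC, a growth-promoting factor, changed by 0.49 ± 0.15 (adjusted p = 0.041) with Nutlin-3A and -0.56 ± 0.15 (adjusted p = 0.017) with Entinostat in p53+/+ cells. MYC changed by -0.79 ± 0.15 (adjusted p = 0.0035) with Entinostat and -0.76 ± 0.15 (adjusted p = 0.0035) with the combination in p53-/- cells. MTF1 changed by 0.28 ± 0.09 (adjusted p = 0.039) with Entinostat and by 0.36 ± 0.09 (adjusted p = 0.0074) with the combination in p53+/+ cells. NFE2L2, an activator of SLC7A11, changed by -0.39 ± 0.07 (adjusted p = 0.0036) and -0.46 ± 0.07 (adjusted p = 0.00046) there, and TFE3, a factor acting on lysosomal genes, by -0.41 ± 0.10 (adjusted p = 0.012) and -0.28 ± 0.10 (adjusted p = 0.039). Between genotypes TFE3 differed under DMSO by -0.50 ± 0.10 (adjusted p = 0.013). The response to Nutlin-3A differed for ATF3, by 1.34 ± 0.36 (adjusted p = 0.044). The response to the combination differed for MYC, by 0.99 ± 0.21 (adjusted p = 0.02), and for NFE2L2, by -0.39 ± 0.10 (adjusted p = 0.0495). These calls were not recomputed without single libraries, and the part of these factors in the changes of SLC genes was not tested.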

How the data were processed

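RNA from 16 libraries was sequenced after preparation with the TruSeq Stranded mRNA kit, per the labels' protocols. The authors deposited 1 table of RPKM values per gene and library. Per the submitters' processing notes, Bowtie2, Partek and the hg19 build were used. The sources used here do not give versions, gene models or the strand setting, so reads of near-identical copies (SLC7A5P2, SLC35E2 and SLC35E2B) or antisense neighbours may be split or mixed. RPKM corrects for gene length and library size but keeps no count, so no counting interval is given. A row of library totals (45902800 to 55507300 alignments) was left out of all tests. No other columns of samples were present (0 unmatched).

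Of 20612 genes, the 12466 with a mean of at least 0.5 RPKM were tested. limma 3.58.1 in R 4.3.3 was fitted to log2(RPKM + 0.5) with 8 group means and a mean-variance trend (8 residual and 4.09 prior degrees of freedom). The p-values of each of 10 comparisons were adjusted over all tested genes (Benjamini-Hochberg), with a threshold of 0.05. The pseudocount understates the change of low genes. The fit was run on simulated data with 200 of 12466 genes changed in the p53+/+ Nutlin-3A group. It recovered 36.1%, 87.3% and 94.1% of log2 changes of 0.5, 1 and 2, and 5.13% of its calls were false. The simulated noise was independent between libraries, while same-numbered replicates deviate together in these data. These rates therefore need not hold here.

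Replicate numbers come from the labels. Over 28 pairs of groups, same-numbered libraries deviated from their group means with correlations of 0.275 to 0.778 across genes, so the numbers pair the samples. The main fit ignores this pairing, and a fit with replicate as a block was an alternative. The others were pseudocounts of 0.1 and 1, no filter, a filter at 1 RPKM, median-of-ratios scaling, quantile normalization and leaving out each library.

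The members, role groups and gene lists were chosen with earlier results of these data known. Role groups follow the family number, and 4 genes that are not carriers were set apart by symbol. By rule, SLC7A11, SLC3A2, SLC7A5, SLC1A5, SLC2A1, SLC2A3, SLC16A1 and SLC30A1 were named, with up to 6 called members per direction in each comparison of 2 groups whose libraries did not overlap. Added were up to 4 per direction in each difference in response and, in each role group, the 3 most abundant members and the 2 called members with the largest ratio between group means. CDKN1A, MDM2 and up to 4 called partner genes per comparison were named as well, and 1 further gene of the label check is not reported here. Other names were chosen after their values were seen.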

Additional observations from a re-analysis of the deposited data

Results flagged for a closer look

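The differences below passed the test of the difference in response between p53+/+ and p53-/- cells (limma, adjusted p under 0.05). Each is the p53+/+ minus the p53-/- log2 change ± SE, with 2 libraries a group.

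With Nutlin-3A the response in p53+/+ cells was above that in p53-/- cells for SLC30A1 (zinc export) by 1.47 ± 0.27 (adjusted p = 0.0057), for SLC2A1 (glucose) by 1.08 ± 0.18 (adjusted p = 0.0038), for SLC12A4 (potassium and chloride) by 0.94 ± 0.21 (adjusted p = 0.019), for SLC29A3 (lysosomal nucleosides) by 0.84 ± 0.19 (adjusted p = 0.02) and for SLC46A1 (folate) by 0.80 ± 0.15 (adjusted p = 0.0057). In p53+/+ cells these genes themselves changed by 1.26, 0.95, 0.89, 0.71 and 0.82, and in p53-/- cells by -0.21, -0.13, -0.05, -0.12 and 0.02. Leaving out single libraries ended the calls for SLC12A4 (adjusted p 0.057 to 0.085 without either p53+/+ DMSO library, either p53+/+ Nutlin-3A library, p53-/- DMSO replicate 2 or without p53-/- Nutlin-3A replicate 2) and SLC29A3 (adjusted p 0.052 to 0.099 without either p53+/+ Nutlin-3A library, p53+/+ DMSO replicate 2, p53-/- DMSO replicate 1 or without p53-/- Nutlin-3A replicate 2). Of the 7 members called for this difference 3 kept the call without each library, SLC30A1, SLC2A1 and SLC46A1, and 4 lost it.

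With the combination it was higher for SLC52A3 (riboflavin) by 1.13 ± 0.21 (adjusted p = 0.012), for SLC2A1 by 1.05 ± 0.18 (adjusted p = 0.0095), for SLC12A4 by 0.91 ± 0.21 (adjusted p = 0.029), for SLC29A3 by 0.84 ± 0.19 (adjusted p = 0.025) and for SLC20A1 (phosphate) by 0.57 ± 0.15 (adjusted p = 0.048). It was lower for 3 members, with differences of -1.04 ± 0.28 (adjusted p = 0.049) for SLC25A40 (mitochondrial), -0.49 ± 0.12 (adjusted p = 0.04) for SLC7A1 (arginine and lysine) and -0.40 ± 0.10 (adjusted p = 0.045) for SLC1A5 (glutamine). Of these 8 members 7 lost the call without at least 1 library, and SLC2A1 kept it without each. The call was lost for SLC52A3 (adjusted p 0.054 to 0.057 without p53+/+ DMSO replicate 1 or without p53-/- DMSO replicate 2), SLC12A4 (adjusted p 0.084 to 0.12 without either p53+/+ DMSO library, p53+/+ combination replicate 1, p53-/- DMSO replicate 2 or without p53-/- combination replicate 2, 0.056 without the filter on low values), SLC29A3 (adjusted p 0.056 to 0.11 without either p53-/- DMSO library, either p53-/- combination library, p53+/+ DMSO replicate 2 or without p53+/+ combination replicate 1) and SLC20A1 (adjusted p 0.11 to 0.17 without any 1 library other than p53+/+ combination replicate 2, 0.07 without the filter on low values), and for SLC25A40 (adjusted p 0.059 to 0.19 without any 1 library other than p53+/+ combination replicate 2, 0.0504 with a pseudocount of 0.1, 0.095 without the filter on low values, 0.0501 under median-of-ratios scaling), SLC7A1 (adjusted p 0.084 to 0.13 without any 1 library other than p53+/+ combination replicate 2) and SLC1A5 (adjusted p 0.11 to 0.14 without any 1 library other than p53+/+ combination replicate 2, 0.053 under median-of-ratios scaling, 0.056 under quantile normalization). The 2 sets share their DMSO libraries.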

How the results depend on the processing

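With 2 libraries a group, single libraries limit these results, and a library left alone in its group is assumed to vary like the other groups. Without a library, calls over all genes mostly moved in the same direction as the member calls below. Leaving out each library gave 16 to 25 member calls for Nutlin-3A, 16 to 55 for Entinostat and 69 to 106 for the combination in p53+/+ cells, and 0, 21 to 63 and 23 to 70 in p53-/- cells. It gave 5 to 6 between genotypes and 3 to 10, 0 and 1 to 22 for the differences in response to Nutlin-3A, Entinostat and the combination. Replicate numbers pair the samples, and the fit with the replicate block called 55 members for Nutlin-3A in p53+/+ cells, 29 between genotypes, and 31 and 43 for the differences in response to Nutlin-3A (22 positive, 9 negative) and the combination (20 and 23). Of all genes this fit called 3931, 1634, 2126 and 2967 in the same order, against 2167, 585, 845 and 720 without the block. Beyond the calls given in the report, it added calls and ended none. The difference for the combination gave 5 calls with no filter, where more genes are tested, and 14 under quantile normalization, for which the cause was not tested. Of 1435 values of 205 named results under other settings, 1355 kept their side of the threshold in the same direction and 80 lost it. Of 872 values without a library, 552 kept it and 320 lost it. None of these reversed. The file holds no counts, so precision at low levels cannot be set by depth.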
